A study of Mus musculus with 18 samples.

Results

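The 10 genes examined here mark Müller glia or their reactive state, gliosis. They were *Glul*, *Slc1a3*, *Gfap*, *Aqp4*, *Kcnj10*, *Dkk3*, *Abca8a*, *Car2*, *Edn2* and *Lcn2*. They were chosen by name, as 10 of the 47729 genes in the count table, and 9 of them passed the filter on low counts. *Edn2* did not. The libraries were made from the RPE of *rd1* mice, a strain with a loss-of-function mutation in *Pde6b*, at P40. In each of 9 mice, 1 eye received AAV-Best1-GFP alone (control) and the fellow eye received the same vector together with AAV-Best1-Nrf2, which carries the human Nrf2 cDNA (Best1-Nrf2). Best1 is an RPE promoter, so the cells that produce the transgene are not Müller glia, and the treated eye received more vector in total. The labels give 9 *rd1* mice, all used here, whereas the study's methods name fewer pairs for this comparison. The retina was removed and RNA was collected from the eyecup, so Müller glia were not the tissue collected for these 18 libraries.

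Müller glia are the radial glia of the retina. They take up glutamate and turn it into glutamine, buffer potassium and water, and seal the outer retina at the limiting membrane. When photoreceptors are injured, a stressed photoreceptor can release endothelin 2, and the glia raise intermediate filaments such as Gfap and acute-phase proteins. Several genes used as Müller glia markers are not restricted to them, and *Glul*, *Dkk3* and carbonic anhydrases are also made by other cells of the eye.

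Library totals ranged from 18956748 to 49598700 counts. *Nfe2l2*, the mouse counterpart of the delivered cDNA, had 76.6 to 134 CPM (the share of a library, in counts per mega-count, after TMM scaling) in control eyes and 275 to 703 CPM in Best1-Nrf2 eyes, with no overlap (log2 fold change, 2.29, SE 0.21, adjusted p = 6.21e-05). The 17 RPE markers summed to 13757 CPM or more in every library, against 376 to 1806 CPM for 20 markers of inner retina neurons. The abundant ones among the latter were *Trpm1* (log2 fold change, -0.08, adjusted p = 0.963) and *Slc6a9* (0.57, adjusted p = 0.479). At means of 490 and 149 CPM in control eyes they made up most of the sum, whereas *Grm6* had 1.96 CPM. The sum thus mostly reflects *Trpm1* and *Slc6a9*. Below, the mean log2 CPM of a list is used, in which abundant genes weigh less. For inner retina neurons it lay from 0.55 to 3.30 in control eyes. It was 4.02 and 4.96 in the Best1-Nrf2 eyes of mice 2 and 6, against -0.14 to 1.17 in the other 7. Members are therefore also given without mouse 6 or without both mice where their values moved. These mice were picked for their treated eyes. The control eyes of mice 7 (3.30) and 8 (2.57), above every other control eye, stayed in, so the choice was one-sided. For genes that are high in such eyes, it can lower the estimate for Best1-Nrf2.

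Of the 9 members tested, 0 differed between the eyes in the paired edgeR quasi-likelihood model (Benjamini-Hochberg adjusted p under 0.05, over 18958 genes). In that comparison 4.25% of all genes tested were called. At an unadjusted p under 0.05 there was 1 member, *Car2*, and 12.8% of all genes tested. DESeq2 called 2, *Car2* and *Kcnj10*, both lower with Best1-Nrf2, and 7.8% of all genes tested, and limma voom called 0 members and 4.68% of all genes tested. The counts of marker lists below can be read against the same shares. Without mouse 6, edgeR called 1, which was *Car2*, and this was also the number without mice 2 and 6. The CPM ranges of both groups overlapped for each of the 10 members, whereas 1.16% of all genes tested had ranges that did not. The same direction in all 9 mice was found for 0 members and for 4.33% of all genes tested. The median log2 fold change of the 9 members was -0.20, beside -0.025 over all genes tested.

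**Figure D1:**
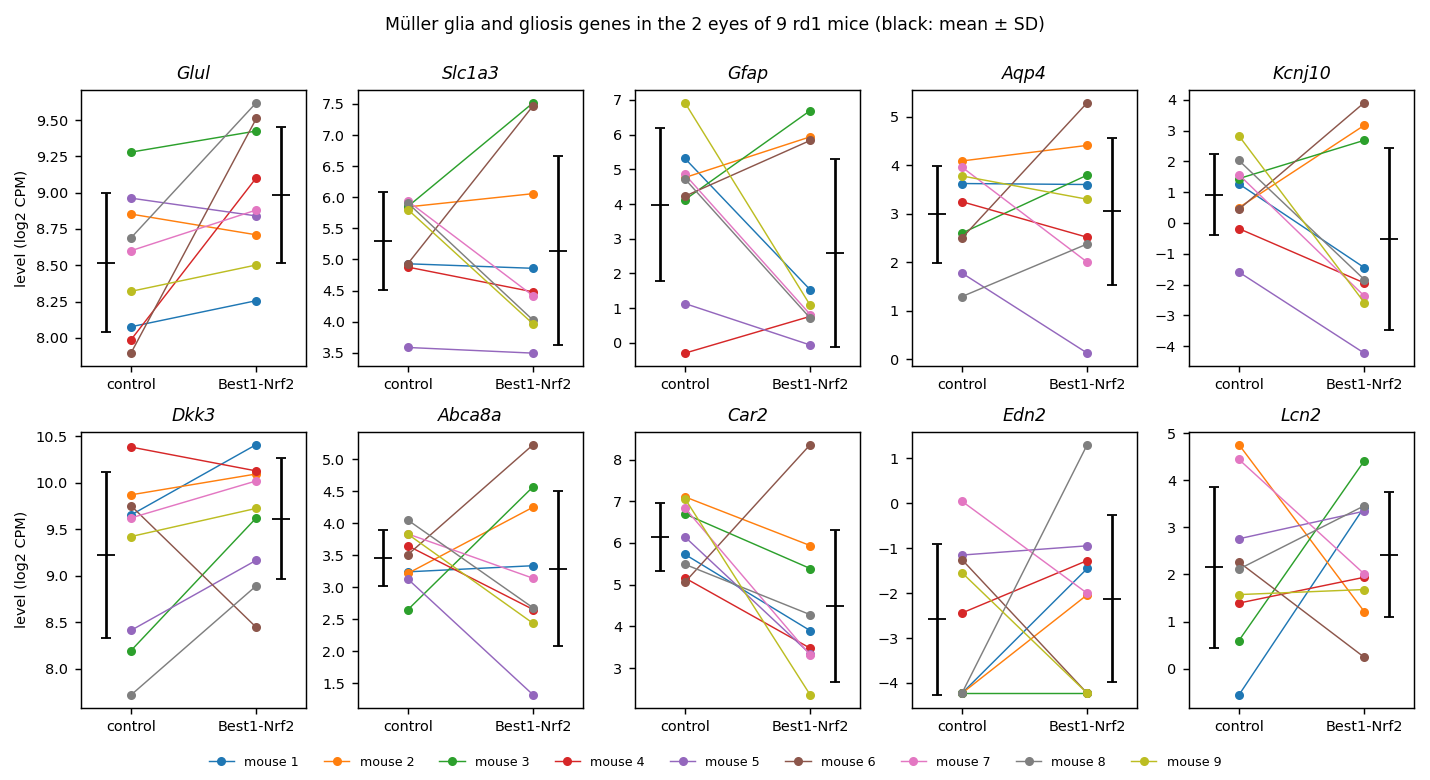
Levels of the 10 members (y axis, log2 CPM with a prior count of 2) in the control and the Best1-Nrf2 eye of each of 9 mice. Lines join the eyes of a mouse, black bars are the mean ± SD (n = 9 libraries each), and the groups overlap in every panel.

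**Figure D2:**
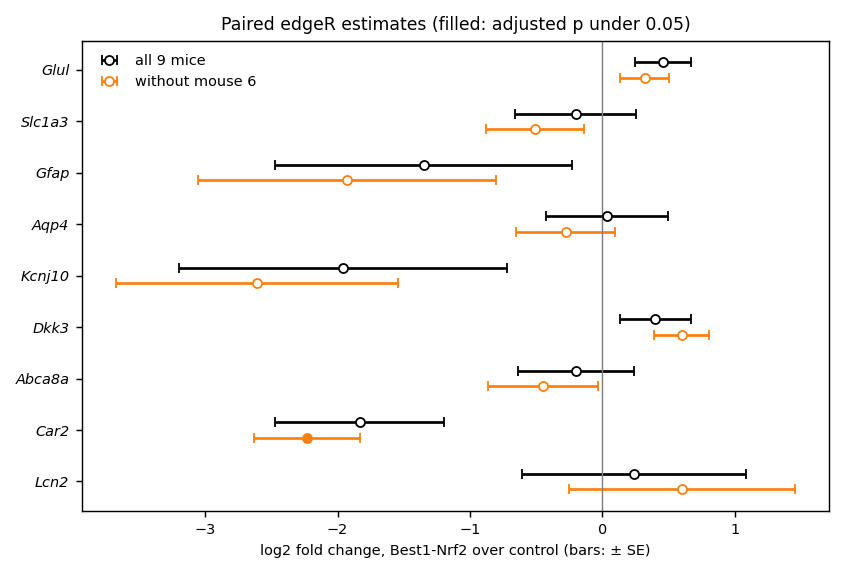
Log2 fold change of the 9 tested members in the paired edgeR model (x axis, points with SE), with all 9 mice (black) and without mouse 6 (orange). The single filled point, *Car2* without mouse 6, had an adjusted p under 0.05.

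Levels between genes were compared per kilobase of annotated exon. By the control median, *Dkk3* was at the top with 235 CPM per kb, followed by *Glul* (117) and *Car2* (29.2). Then came *Slc1a3* (6.53), *Gfap* (6.25), *Abca8a* (1.81), *Lcn2* (1.63), *Aqp4* (1.52), *Kcnj10* (0.437) and *Edn2* (0.0894 CPM per kb). Among control eyes only the steps from *Glul* to *Car2* and from *Car2* to *Slc1a3* had ranges without overlap. *Dkk3* exceeded *Glul* in 6 of 9 control libraries and *Lcn2* exceeded *Aqp4* in 5 of 9, so these neighbours were not separated beyond the spread. With Best1-Nrf2 the top 3 medians kept their order (252, 142 and 6.12 CPM per kb), while that of *Gfap* was 0.489 and moved from position 5 to position 8. In bulk RNA, fewer cells of a type and less RNA per cell cannot be told apart.

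The enzyme and the transporter of glutamate clearance were considered first. *Glul* (ENSMUSG00000026473, GRCm38 chromosome 1, 153899944–153909723, plus strand) encodes glutamine synthetase, which converts glutamate to glutamine. Its level had a low of 238, a median of 388 and a high of 621 CPM in control eyes. With Best1-Nrf2 these were 306, 471 and 787 CPM. The ranges overlapped widely. The log2 fold change was 0.46 (SE 0.21, adjusted p = 0.395). In 7 of 9 mice the treated eye had more, by the most in mice 6 (1.62), 4 (1.12) and 8 (0.93). In no other mouse did the log2 difference exceed 0.28. *Glul* was the steadiest member, with a within-group SD of 0.47 on the log2 scale, which exceeded that of only 22.3% of genes tested. Of its 31-base words, 20.4% occur in other annotated genes, and *Teddm2* and *Mir8114* overlap its exons, so its count may include reads of other genes.

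*Slc1a3* (ENSMUSG00000005360, chromosome 15, 8634124–8710764, minus strand) encodes the glutamate transporter GLAST. In control eyes it had a low of 11.9, a median of 55.7 and a high of 61.2 CPM. With Best1-Nrf2 the low was 11.2, the median 22.2 and the high 184 CPM. The 2 highest libraries of all were the treated eyes of mice 3 (184) and 6 (178 CPM), while the treated eyes of mice 7, 8 and 9 were at 21.2, 16.2 and 15.5 CPM against 61.2, 59.9 and 55.7 CPM in their fellow eyes. The group mean was therefore higher with Best1-Nrf2 (60.4 ± 70.2 against 43.8 ± 18.2 CPM, SD, n = 9 each), although the median was lower. The paired log2 fold change was -0.20 (SE 0.46, adjusted p = 0.936), lower in 6 of 9 mice. It was 0.03 without mouse 8 and 0.02 without mouse 9, so its direction rested on single mice, and without mice 2 and 6 it was -0.56 (adjusted p = 0.571).

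Of the 9 members tested, *Gfap* and *Kcnj10* varied the most between libraries of a group. *Gfap* (ENSMUSG00000020932, chromosome 11, 102887336–102900912, minus strand) encodes glial fibrillary acidic protein, the classical sign of gliosis. In control eyes it ranged from 0.762 through a median of 26.4 to 121 CPM, and 7 of the 9 were at 17.4 CPM or above. With Best1-Nrf2 it ranged from 0.906 through a median of 2.06 to 103 CPM. There the eyes of mice 2, 3 and 6 held 61.1, 103 and 56.9 CPM, and no other treated eye exceeded 2.83 CPM. The within-group SD was 2.47 on the log2 scale, more than that of 99.3% of genes tested. The log2 fold change was -1.35 (SE 1.12, adjusted p = 0.731), with the gene lower in 5 of 9 mice. In mouse 9 it was lower by the most, from 121 to 2.06 CPM. Leaving out a mouse moved the change between -1.94 (without mouse 3) and -0.71 (without mouse 9), and without mice 2 and 6 it was -2.48 (adjusted p = 0.319). A gene on the other strand, *Gm26668*, overlaps exons of *Gfap*, and a count without strand cannot part them.

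The sequences around the start sites were searched for motifs. RefSeq promoters (GRCm38.p6, 250 bases before to 50 after the annotated start) were at hand for 7 of the 10 members. Both strands were searched for TGACNNNGC, the core of the antioxidant response element that Nrf2 binds, and for TTCNNNGAA, the core bound by STAT factors, which act in gliosis. The former was in 0 of the 7 windows and in 12.39% of 32851 promoters in the table. The latter was in 2 of the 7, those of *Slc1a3* and *Gfap*, and in 8.3% of all. These 2 are shown because they hold the match. *Kcnj10* and *Abca8a*, which were also high in the treated eyes of mice 3 and 6, held 0 matches. Capitals mark it below, and it starts 96 bases before the annotated start of *Slc1a3* and 2 bases before that of *Gfap*. A match describes the letters of the window and is not evidence of binding. The windows are chr15:8710758-8711057 and chr11:102897151-102897450, both on the minus strand and written 5′ to 3′.
*Slc1a3*: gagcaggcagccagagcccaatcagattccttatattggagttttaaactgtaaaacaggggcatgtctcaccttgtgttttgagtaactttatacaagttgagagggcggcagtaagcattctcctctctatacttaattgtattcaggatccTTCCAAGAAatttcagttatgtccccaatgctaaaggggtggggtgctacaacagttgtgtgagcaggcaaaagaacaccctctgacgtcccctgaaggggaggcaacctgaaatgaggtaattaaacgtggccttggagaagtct
*Gfap*: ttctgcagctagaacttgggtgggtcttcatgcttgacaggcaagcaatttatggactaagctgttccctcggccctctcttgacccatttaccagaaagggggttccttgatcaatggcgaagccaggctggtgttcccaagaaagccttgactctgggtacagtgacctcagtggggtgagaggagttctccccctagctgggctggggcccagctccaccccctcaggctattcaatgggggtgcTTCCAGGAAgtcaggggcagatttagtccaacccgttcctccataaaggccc

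*Kcnj10* (ENSMUSG00000044708, chromosome 1, 172341210–172374085, plus strand) encodes the potassium channel Kir4.1, through which Müller glia clear potassium. It was scarce, with a low of 0.278, a median of 2.36 and a high of 7.08 CPM in control eyes. With Best1-Nrf2 the low was 0 and the median 0.226, but the eyes of mice 6, 2 and 3 held 518, 377 and 166 counts, the last of these at 6.39 CPM. These were the same 3 treated eyes in which *Gfap* was high. The other 6 treated eyes had 0 to 18 counts, fewer than the fellow eye in each of those mice. The group mean was higher with Best1-Nrf2 (3.49 ± 5.45 against 2.54 ± 2.06 CPM) and the median lower. The log2 fold change was -1.96 (SE 1.24, adjusted p = 0.601), lower in 6 of 9 mice, and DESeq2 gave -2.25 (adjusted p = 0.0383). Over the alternatives run, the adjusted p ranged from 0.0383 to 0.972, and without mice 2 and 6 the change was -3.21 (adjusted p = 0.0631 in edgeR). It was -0.51 in voom, and it turned to 0.46 without the mouse block and to 1.78 with the covariate for rod and cone markers.

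*Aqp4* (ENSMUSG00000024411, chromosome 18, minus strand) encodes the water channel aquaporin 4, which lies beside Kir4.1 in glial endfeet. *AC133525.2*, on the other strand, overlaps its exons. It had a low of 2.39, a median of 9.45 and a high of 16.97 CPM in control eyes. In treated eyes the low was 1.03, the median 9.79 and the high, in mouse 6, 39.2 CPM. The eyes differed in no common direction, and the log2 fold change was 0.03 (SE 0.46, adjusted p = 0.991) with a higher level in 4 of 9 mice. Without mice 2 and 6 it was -0.31 (adjusted p = 0.797).

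**Figure D3:**
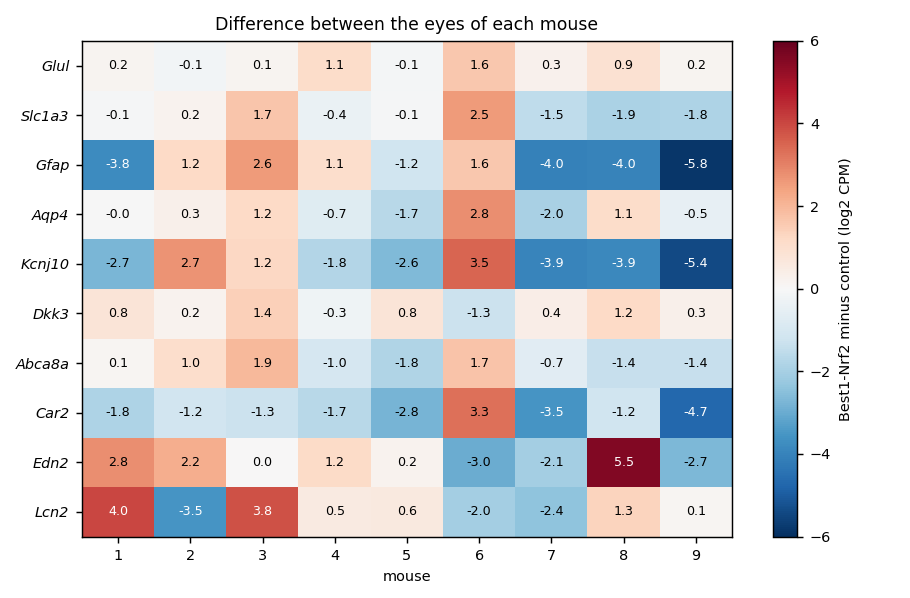
Difference in level between the Best1-Nrf2 and the control eye (colour and printed value, log2 CPM) for each member (rows) in each mouse (columns). *Gfap* and *Kcnj10* were higher together in mice 2, 3 and 6 and lower together in mice 1, 5, 7, 8 and 9, and *Car2* was lower in every mouse but mouse 6.

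*Car2* (ENSMUSG00000027562, chromosome 3, 14886273–14900770, plus strand) encodes carbonic anhydrase 2, which forms bicarbonate and is found in Müller glia, red blood cells and oligodendrocytes. Its control level had a low of 33.3, a median of 70.8 and a high of 138 CPM. With Best1-Nrf2 the low was 5.05 and the median 14.8 CPM, and 8 of 9 eyes were at 61.2 CPM or below. The eye of mouse 6 stood apart at 329 CPM, the highest of all 18 libraries. *Car2* was lower in 8 of 9 mice, with a change of -1.83 on the log2 scale (SE 0.63, adjusted p = 0.185). Without mouse 6 the change was -2.23 (SE 0.40, adjusted p = 0.00606, lower in 8 of 8 mice), and without mice 2 and 6 it was -2.34 (adjusted p = 0.00925). DESeq2 called it with all mice (-1.85, adjusted p = 0.0047), whereas edgeR without the mouse as a block gave -0.54 (adjusted p = 0.926). With a covariate for the mean level of rod and cone markers its direction turned (2.08, adjusted p = 0.234). That covariate moved with the groups, as the 11 cone markers summed to 329 to 2347 CPM without and 62.9 to 557 CPM with Best1-Nrf2, and 10 of 11 were called lower, with *Opn1sw* at -5.94, *Pde6h* at -5.93, *Arr3* at -4.80 and *Opn1mw* at -4.68 on the log2 scale. Of 11 rod markers tested, 4 were lower, with *Sag* at -5.03, *Pde6g* at -4.79, *Prph2* at -4.65 and *Gngt1* at -4.34, and 1 was higher.

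Other sources of *Car2* RNA were measured beside it. Of the 8 red blood cell markers, 5 were tested and 0 were called by edgeR, DESeq2 or voom, with 0 at an unadjusted p under 0.05. Their sum ranged from 294 to 3171 CPM among control eyes and from 341 to 5340 CPM among treated eyes, with *Slc4a1* and *Car1* among those at 0 in 9 or more libraries. *Hba-a1* (log2 fold change, 0.48, adjusted p = 0.823) and *Hbb-bs* (0.37, adjusted p = 0.865) were the most abundant. The treated eyes of mice 3 and 6 had the highest sums, 5340 and 3641 CPM. For the 10 markers of oligodendrocytes and Schwann cells the ranges were 248 to 1248 and 229 to 913 CPM, 7 were tested and 0 called by edgeR, DESeq2 or voom, with 0 at an unadjusted p under 0.05. *Mbp* (-0.93, adjusted p = 0.423) and *Pmp22* (-0.11, adjusted p = 0.923) were abundant, and *Olig2* was among those at 0 in 9 or more libraries. The mean log2 CPM of the list was 2.53, 2.97, 2.81 and 3.02 in the control eyes of mice 1, 3, 6 and 9, and 2.56 and 3.06 in the treated eyes of mice 3 and 6. In the other libraries it did not exceed 1.67. The part of these cells in the level of *Car2* was not tested.

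*Dkk3* (ENSMUSG00000030772, chromosome 7, 112116017–112159057, minus strand) encodes a secreted member of the Dickkopf family of Wnt modulators. Its level had a low of 211, a median of 789 and a high of 1338 CPM in control eyes. With Best1-Nrf2 the low was 349, the median 847 and the high 1363 CPM. It was abundant in every library, including the 3 in which *Gfap* was at 1.58 CPM or below. The log2 fold change was 0.40 (SE 0.26, adjusted p = 0.627), higher in 7 of 9 mice, and in mouse 6 the difference was -1.31. Without mice 2 and 6 the change was 0.72 (adjusted p = 0.127).

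*Abca8a* (ENSMUSG00000041828, chromosome 11, 110025634–110095978, minus strand) encodes a lipid transporter of the A class of ABC proteins. In control eyes it had a low of 6.22, a median of 11.3 and a high of 16.5 CPM, and with Best1-Nrf2 it had a low of 2.43, a median of 8.76 and a high of 37.5 CPM. The spread was wider among treated eyes, again with mouse 6 at the top. The log2 fold change was -0.20 (SE 0.44, adjusted p = 0.933), lower in 5 of 9 mice, although the group mean was higher with Best1-Nrf2 (13.3 ± 11.4 against 11.4 ± 3.27 CPM). Without mice 2 and 6 the change was -0.61 (adjusted p = 0.536).

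The injury signals *Edn2* and *Lcn2* were considered last. *Edn2* (ENSMUSG00000028635, chromosome 4, 120161206–120167360, plus strand), the gene of the endothelin 2 ligand, was near the detection limit. Control eyes of mice 1 to 9 held 0, 0, 0, 6, 10, 16, 39, 0 and 14 counts. Best1-Nrf2 eyes of the same mice held 18, 8, 0, 14, 18, 0, 7, 75 and 0 counts. Counts of 0 thus occurred in 4 control and 3 treated eyes, and both groups overlapped throughout. With no filter on low counts the log2 fold change was 0.56 (adjusted p = 0.962). The filter kept the gene without mouse 2, where the change was 0.0285, without mouse 3 (0.53) and without mice 2 and 6 (0.79, adjusted p = 0.861). *Lcn2* (ENSMUSG00000026822, chromosome 2, 32384633–32388252, minus strand) encodes lipocalin 2, an iron-siderophore binding protein of the acute phase. It had a low of 0.625, a median of 4.27 and a high of 27.0 CPM in control eyes. In treated eyes it had a low of 1.13, a median of 3.97 and a high of 21.2 CPM. It went from 0.625 to 10.7 CPM in mouse 1 and from 1.46 to 21.2 CPM in mouse 3, but from 27.0 to 2.26 CPM in mouse 2. The log2 fold change was 0.24 (SE 0.85, adjusted p = 0.961), higher in 6 of 9 mice. It was 0.71 without mouse 2, -0.16 without mouse 1 and -0.17 without mouse 3, and 1.19 without mice 2 and 6 (adjusted p = 0.488).

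Neutrophils also make lipocalin 2. Of 9 neutrophil markers, 4 were tested and 1, *Csf3r*, was called (log2 fold change, 1.83, adjusted p = 0.0374). The list held 0 calls without mouse 1, 2, 3, 5, 7 or 9, and without mice 2 and 6. The markers summed to 7.36 to 217 CPM without and 7.10 to 73.7 CPM with Best1-Nrf2, and *Elane* and *Ngp* were at 0 in 9 or more libraries. The treated eye of mouse 3, with the highest *Lcn2* of its group, also had the highest mean log2 CPM of neutrophil markers in that group (0.15, with -0.91 as the next). In the control eyes of mice 2 and 7, with 27.0 and 21.7 CPM of *Lcn2*, that mean was -1.21 and -0.75, but the sums of the markers, 76.7 and 217 CPM, were the highest of the control eyes. The control eye of mouse 8 had the highest mean (0.32) with 4.27 CPM of *Lcn2*. *Ltf*, a neutrophil marker, was among the 10 genes most like *Lcn2* (r = 0.742). It had a mean of 52.3 CPM in control eyes, and the next most abundant marker, *Cxcr2*, had 3.22 CPM. The sums thus mostly reflect *Ltf*, and they and its likeness to *Lcn2* are not separate observations. The part of neutrophils in *Lcn2* was not tested.

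Several members moved together within a mouse. In mice 2, 3 and 6, *Slc1a3*, *Gfap*, *Aqp4*, *Kcnj10* and *Abca8a* were each higher in the Best1-Nrf2 eye. In mice 5, 7 and 9 all 5 were lower, as was *Car2*. In the treated eyes of mice 2 and 6 the inner retina neuron markers were also the highest of all libraries (mean log2 CPM, 4.02 and 4.96). In the treated eye of mouse 3 they were at 0.76, within the range of the other treated eyes, whereas the 8 astrocyte markers, *Gfap* among them, were at 6.12, the highest of all libraries. In the control eye of mouse 9, which had the most *Gfap*, inner retina markers were at 1.90. Astrocyte markers there were at 5.53, the highest of the control eyes. Inner retina markers were higher in the control eyes of mice 7 (3.30) and 8 (2.57) than in any other control eye. In both mice *Slc1a3*, *Gfap*, *Kcnj10*, *Abca8a* and *Car2* were lower in the treated eye, with *Gfap* at -4.03 and -4.01 log2. *Aqp4* was lower in mouse 7 (-1.96) and higher in mouse 8 (1.09). All 20 inner retina markers were found in at least 1 library, 14 were tested and 0 called (1 at an unadjusted p under 0.05, and 0 by DESeq2 or voom). Of the astrocyte markers 7 were tested and 0 called (2 at an unadjusted p under 0.05, beside 12.8% of all genes tested, 1 by DESeq2, beside 7.8%, and 0 by voom), among them the abundant *Gja1* (log2 fold change, 0.47, adjusted p = 0.629) and *Aldoc* (0.30, adjusted p = 0.604). Without mouse 6, 2 of them passed, *Aldh1l1* (0.77, adjusted p = 0.048) and *Slc1a2* (-1.25, adjusted p = 0.0349). The part of carried-over retina in these levels was not tested.

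**Figure D4:**
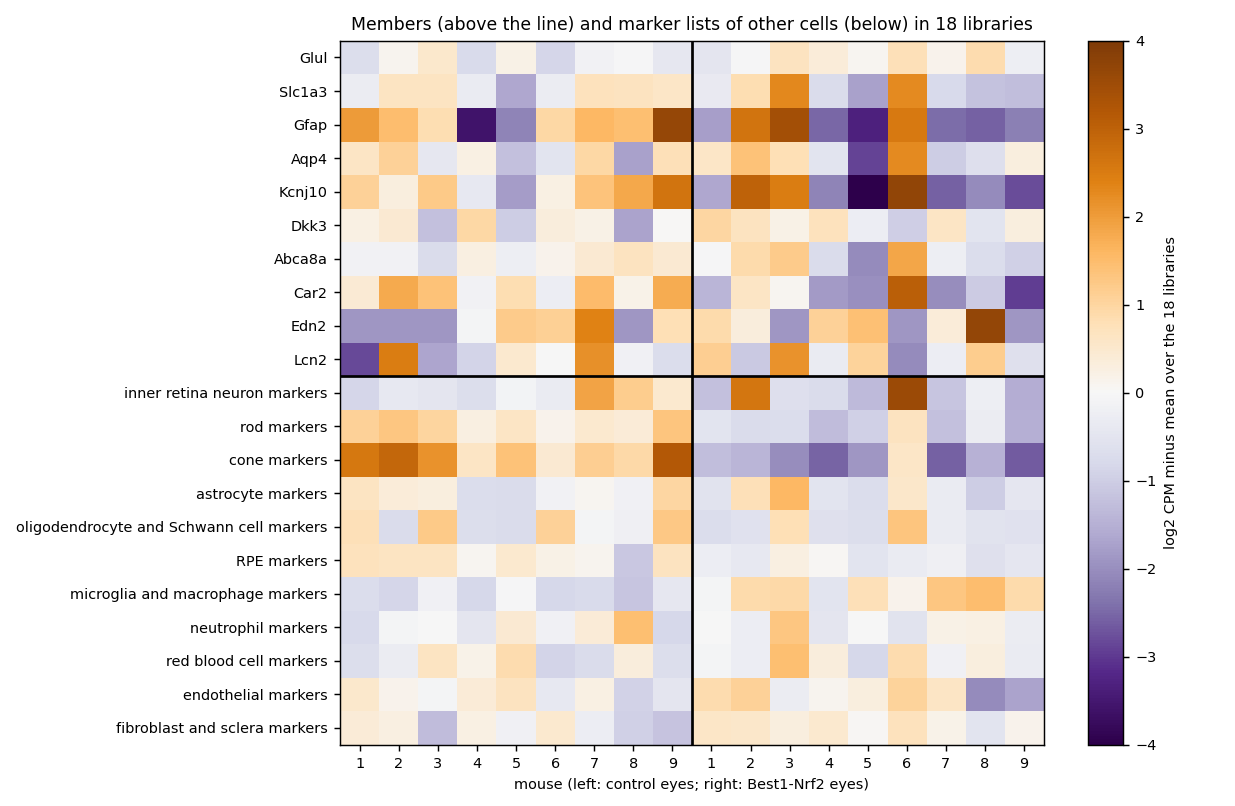
Level of each member (upper rows) and mean level of marker lists of other cells (lower rows) in the 18 libraries (columns), as log2 CPM minus the mean over all libraries (colour). Inner retina neuron markers and *Gfap*, *Kcnj10* and *Slc1a3* are high together in the treated eyes of mice 2 and 6, and in that of mouse 3 these 3 genes are high while inner retina neuron markers are not.

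For each member, the genes with the most similar course over the 18 libraries were sought by Pearson correlation of log2 CPM after removal of the group means. These values are descriptions, since the genes share libraries and their depth and since both eyes of a mouse are among the libraries. *Kcnj10* was closest to *Mapk8ip2* (r = 0.949) and to the member *Slc1a3* (0.926). *Slc1a3* was closest to *Gpr85* (0.944) and *Ntm* (0.920), and *Gfap* to *Kif5a* (0.925) and *Gpr37l1* (0.897). *Ache* (0.890) was among the closest to *Aqp4*. For *Abca8a* the genes were *Apba2* (0.892) and *Mlc1* (0.870), and for *Car2* they were *Platr17* (0.953) and *Tmod2* (0.931). *Glul* and *Dkk3* had other companions, *Smim8* (0.969) and *Park7* (0.966) for *Glul* and *Fmod* (0.977) and *Shisa2* (0.974) for *Dkk3*. *Lcn2* had *Rdm1* (0.761) and *Atp1b3* (0.760), and *Edn2* had *Gm14292* (0.814) and *Fam221a* (0.784).

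To place the members, other genes of the same cells and pathways were read from the same fit. Over all genes tested, 3.12% were called higher and 1.13% lower. Of 16 other Müller glia markers, 16 were tested, 0 were higher and 1 lower, with a median log2 fold change of -0.41. The 1 was *Rlbp1*, whose product carries retinaldehyde in Müller glia and also in the RPE. It went from 2364 ± 974 to 998 ± 243 CPM (log2 fold change, -1.16, SE 0.22, adjusted p = 0.00951, lower in 9 of 9 mice). Without mouse 6 there were 2, as *Crym* also passed (-4.14, adjusted p = 0.0325). *Vim*, the other intermediate filament of Müller glia, was higher in 9 of 9 mice but did not pass (140 ± 34.0 against 295 ± 190 CPM, log2 fold change 0.90, adjusted p = 0.0770). *Sox9*, a transcription factor shared by Müller glia and RPE, had a change of 0.0026 (adjusted p = 0.999).

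Of 24 genes known to rise in reactive glia, 24 were tested, 2 rose and 0 fell, with a median log2 fold change of 0.45. *Serpina3n*, a secreted protease inhibitor, rose from 322 ± 81.8 to 858 ± 423 CPM (log2 fold change, 1.30, SE 0.23, adjusted p = 0.00497, 8 of 9 mice). *Nes*, which encodes nestin, rose from 4.64 ± 1.70 to 16.97 ± 8.96 CPM (1.75, SE 0.35, adjusted p = 0.0130, 9 of 9 mice). Without mouse 6 *Atf3* passed as well (0.86, adjusted p = 0.0295). *Stat3* (-0.01, adjusted p = 0.992) and *Fgf2* (0.0015, adjusted p = 0.999) did not pass. RPE, vessel and immune cells also express several of these genes, and their shares were not tested. Of 14 macrophage and microglia markers, 8 were higher (median, 1.75), among them *P2ry12* (2.45), *Trem2* (2.30), *Adgre1* (2.28) and *Tyrobp* (2.01) on the log2 scale. *Csf1r*, which had the highest level of the list in control eyes, went from 136 ± 122 to 59.5 ± 33.9 CPM (-0.97, adjusted p = 0.113, lower in 8 of 9 mice). Of 17 RPE markers, 5 were lower, led by *Rpe65* (-2.81), *Lrat* (-1.78), *Rgr* (-1.38) and *Rlbp1*. *Best1* (0.97, adjusted p = 0.0555, higher in 9 of 9 mice) and *Tyr* (0.78, adjusted p = 0.190, 8 of 9 mice) did not pass, and without mouse 6 both were called higher (1.04, adjusted p = 0.0451, and 0.97, adjusted p = 0.0314). Of 8 fibroblast markers, 1 rose, *Col3a1* (1.15, adjusted p = 0.0462), and the list held 0 calls without mouse 1, 2, 3, 5, 7 or 9, without the block or with the inner retina covariate. Of 8 endothelial markers 0 were called by edgeR, DESeq2 or voom, with *Plvap* at 0.23 (adjusted p = 0.8004) and *Vwf* at 0.37 (adjusted p = 0.825).

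Among 14 genes of glutamate and glutamine handling, 13 were tested, 1 rose and 0 fell (median, 0.11). This was *Slc1a4*, a transporter of neutral amino acids, which rose from 6.57 ± 3.31 to 213 ± 147 CPM (log2 fold change, 4.70, SE 0.59, adjusted p = 5.87e-04, 9 of 9 mice). It belongs to the same family as *Slc1a3* but does not carry glutamate as its main substrate. Without mouse 6 *Slc1a2*, a glial glutamate transporter, was lower (-1.25, adjusted p = 0.0349). Of 13 genes for potassium and water handling, 1 fell (median, 0.03). *Dmd*, the gene of dystrophin, went from 29.7 ± 9.24 to 18.3 ± 2.16 CPM (-0.65, SE 0.16, adjusted p = 0.0462, lower in 9 of 9 mice). The call was lost without mouse 1 (adjusted p = 0.159), 3 (0.145), 4 (0.106), 5 (0.1004), 7 (0.0756), 8 (0.0755) or 9 (0.120), and the list then held 0 calls without mouse 1, 3, 4, 5, 7 or 9.

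Of 14 carbonic anhydrases 12 were tested and 0 passed in edgeR (3 at an unadjusted p under 0.05, beside 12.8% of all genes tested, 2 in DESeq2, beside 7.8%, and 0 in voom), with a median of -0.20. The abundant isoforms were *Car14*, at 1273 ± 359 CPM without and 983 ± 245 CPM with Best1-Nrf2, and *Car12*, at 504 ± 374 and 397 ± 209 CPM. Without mouse 6 the list had 2 calls, *Car2* and *Car11* (-1.11, adjusted p = 0.00732). Next to *Abca8a*, of the 4 tested genes of its cluster, *Abca8b* rose from 1.42 ± 0.549 to 12.4 ± 6.84 CPM (log2 fold change, 3.00, SE 0.39, adjusted p = 7.48e-04, 9 of 9 mice). *Abca5* (-0.19, adjusted p = 0.849) and *Abca9* (-0.02, adjusted p = 0.994) did not pass. Of the 31-base words of *Abca8a*, 3.11% are shared with other genes.

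Of 6 tested Dickkopf and Kremen genes 0 passed in edgeR, as did 0 of 6 tested endothelin genes, with medians of 0.02 and 0.33. *Kremen1* (-0.06, adjusted p = 0.982), *Ece1*, an endothelin-converting enzyme (0.18, adjusted p = 0.928), and *Edn3* (0.48, adjusted p = 0.712) were the most abundant beside *Dkk3*. At an unadjusted p under 0.05 the counts were 0 and 1 in edgeR, and the adjusted counts were 0 and 1 in DESeq2 and 0 and 0 in voom. *Ednrb*, the endothelin receptor of glia, was at 10.8 ± 4.48 and 19.2 ± 14.2 CPM (0.66, adjusted p = 0.586). Of lipocalin 2 and its partners, 4 genes, 1 rose. It was *Mmp9*, whose protease forms a complex with lipocalin 2, from 0.541 ± 0.693 to 8.34 ± 4.45 CPM (4.99, SE 0.94, adjusted p = 0.00866, 9 of 9 mice). The lipocalin 2 receptor gene *Slc22a17* (0.62, adjusted p = 0.0788) passed without mouse 6 (0.68, adjusted p = 0.0463) and *Lrp2* (0.36, adjusted p = 0.490) did not pass.

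**Figure D5:**
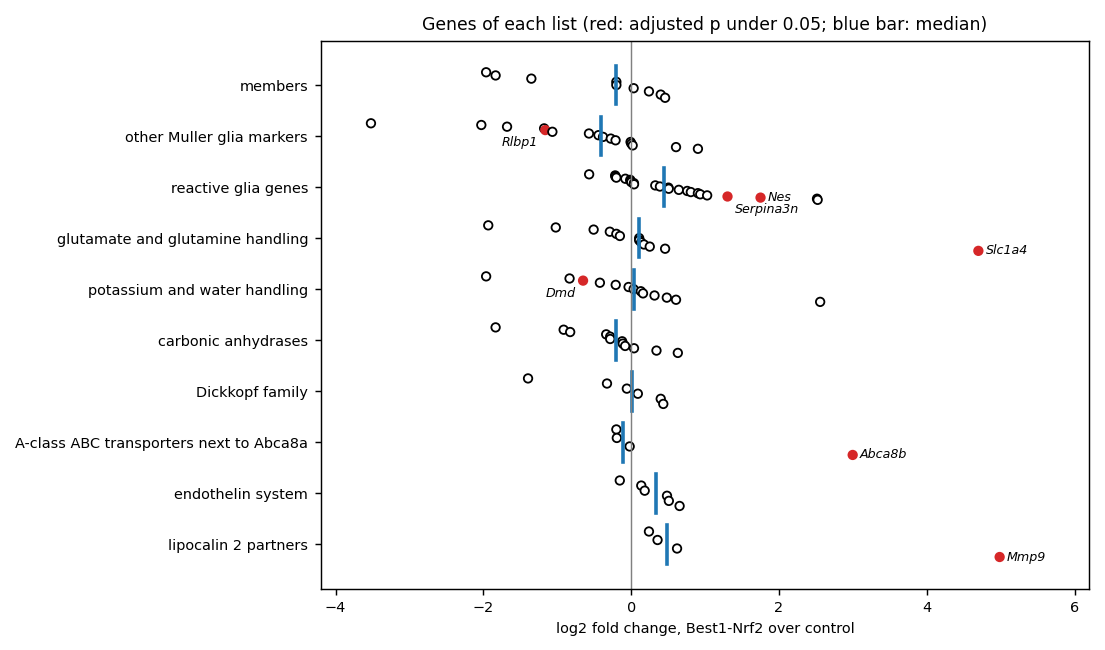
Log2 fold change of every tested gene (points) in the members and 9 related lists (rows), from the paired edgeR model. Red points with names had an adjusted p under 0.05, and blue bars are list medians, which lay between -0.41 and 0.49.

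The calls of *Slc1a4*, *Abca8b*, *Mmp9*, *Nes*, *Serpina3n* and *Rlbp1* held without each mouse in turn. With the covariate for rod and cone markers all 6 were lost, as was that of *Nfe2l2*, while the directions stayed and the SE grew. The log2 fold changes were then 2.16 (SE 0.82) for *Slc1a4*, 2.75 (SE 0.86) for *Abca8b*, 6.22 (SE 2.41) for *Mmp9*, 1.398 (SE 0.77) for *Nes*, 0.76 (SE 0.48) for *Serpina3n*, -0.40 (SE 0.43) for *Rlbp1* and 1.79 (SE 0.44) for *Nfe2l2*.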

How the data were processed

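RNA from the RPE of 9 *rd1* mice (18 libraries, both eyes of each mouse) had been amplified by poly(A) priming with a kit that does not mark strand. The authors deposited a table of expected counts per gene, estimated from reads and not all whole. Their methods name STAR and featureCounts with mm10 and Ensembl 91, and Salmon (0.8.1 in the submitters' processing notes), and which of these made the table is not given in the sources used here. The expected counts were rounded to whole numbers. Genes were filtered with filterByExpr, scaled by TMM and tested with the edgeR (4.0.16, R 4.3.3) quasi-likelihood F test with the mouse as a block, and p-values were adjusted by Benjamini-Hochberg over 18958 genes at a threshold of 0.05. SE came from the F statistic, and log2 CPM used a prior count of 2. With the block, the SE reflects how the difference between the eyes varied from mouse to mouse, not differences in level between mice. No molecular identifiers were described, so counts are of reads.

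The pairing comes from the labels, which give both eyes of a mouse 1 individual number. The correlation of the deviations of paired eyes ranged from -0.37 to 0.64, with a median of -0.00095. No 2 libraries of a group agreed within sampling noise (lowest chi-square per degree of freedom, 33.1). Libraries came from 2 sequencing runs that the labels do not assign, so an effect of the run could not be checked.

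The text names all members, *Nfe2l2*, up to 4 genes of each list past the threshold by size of change (otherwise the 2 with the highest mean CPM) and the 2 genes most like each member. Results of some genes that this rule or the lists include are not reported here. Genes named beyond this rule (such as *Vim*, *Sox9*, *Stat3*, *Fgf2*, *Abca5*, *Abca9*, *Ednrb*, *Slc22a17*, *Lrp2*, *Best1*, *Tyr*, *Csf1r*, *Ltf* and those that passed without mouse 6) were chosen after their values were seen. The members and lists were chosen with earlier results of these data known. Positions are from GENCODE M21 (GRCm38), another release than the authors used. The alternatives were limma voom (3.58.1), DESeq2 (1.42.0), RLE and upper-quartile scaling, no filter or at least 10 counts in every library, no block, covariates for inner retina or photoreceptor markers, and leaving out each mouse. The edgeR steps were tested on simulated data with the same dispersion for every gene, no mouse effect and no outlying library. That run does not show how the test behaves for genes as variable as *Gfap* or *Kcnj10*.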

Additional observations from a re-analysis of the deposited data

Results flagged for a closer look

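In 4 of 60 sets of 9 libraries, the highest or lowest library lay farther from its neighbour than the Dixon limit for 9 values allows. Chance flags about 1 in 20 such sets, which is 3 of 60. *Slc1a3* was at 3.58 log2 CPM in the control eye of mouse 5, the lowest of its group, with the next at 4.88. Cone markers had a mean of 4.53 log2 CPM in the Best1-Nrf2 eye of mouse 6, the highest of its group, with the next at 2.70. RPE markers had a mean of 8.02 log2 CPM in the control eye of mouse 8, the lowest of its group, with the next at 9.20. Neutrophil markers had a mean of 0.15 log2 CPM in the Best1-Nrf2 eye of mouse 3, the highest of its group, with the next at -0.91.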

How the results depend on the processing

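Without the replicate block for the mouse, 0 members were called, and *Slc1a3* (0.46), *Kcnj10* (0.46), *Abca8a* (0.22) and *Lcn2* (-0.10) changed sign; called were 2 other Müller glia markers, 4 reactive glia genes and 0 fibroblast markers. *Aqp4* was at -0.0206 with upper-quartile scaling, and *Abca8a* at 0.00075 with voom. *Glul* was higher under all 19 alternatives run.

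DESeq2 called 940 genes higher and 538 lower, with 2 members lower, 5 other Müller glia markers, 6 reactive glia genes, 3 glutamate and 4 potassium and water genes, 2 carbonic anhydrases, 1 endothelin gene, 2 lipocalin 2 partners, 8 RPE markers and 1 astrocyte marker. With voom, 2 potassium and water genes and 2 lipocalin 2 partners were called. At least 10 counts in every library, which tests fewer genes, left 0 lipocalin 2 partners and 3 rod markers called, and no count filter left 0 potassium and water genes. The inner retina covariate gave 2 other Müller glia markers, 0 potassium and water genes, 1 carbonic anhydrase and 0 fibroblast markers.

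With the photoreceptor covariate, 22 genes were higher and 0 lower. *Slc1a3* (1.48), *Gfap* (1.00), *Kcnj10* (1.78), *Dkk3* (-0.44), *Abca8a* (0.72), *Car2* (2.08) and *Lcn2* (-0.59) changed sign, and *Aqp4* (1.84) and *Glul* (1.39) moved to their highest values over the alternatives run. The lists with calls then had 0: other Müller glia, reactive glia, glutamate, potassium and water, ABC transporters, lipocalin 2 partners, rods, cones, RPE, macrophages, neutrophils and fibroblasts. Medians moved to 0.43 for carbonic anhydrases, -0.83 for the Dickkopf family, -0.52 for the endothelin system, -0.56 for cones, 2.68 for inner retina neurons, -1.77 for neutrophils, 0.32 for oligodendrocytes, 2.20 for red blood cells, 1.06 for endothelium and 0.0418 for fibroblasts. The cause was not tested.

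Leaving out each mouse in turn gave 416 (without mouse 7) to 726 (without mouse 6) genes higher and 116 (without mouse 1) to 320 (without mouse 6) lower, and 0 to 1 members lower. Log2 fold changes ranged from -0.51 to 0.0304 for *Slc1a3*, -0.28 to 0.29 for *Aqp4*, -0.45 to 0.0201 for *Abca8a* and -0.17 to 0.71 for *Lcn2*. The calls ranged from 0 to 1 for potassium and water genes, neutrophils, fibroblasts and oligodendrocytes, 1 to 2 for lipocalin 2 partners, other Müller glia markers and glutamate genes, 0 to 2 for carbonic anhydrases and astrocytes, 3 to 5 for rods and 3 to 7 for RPE markers. Leaving out mice 2 and 6 was chosen after seeing the data, and for their treated eyes only. It gave 1 member lower, *Aqp4* at -0.31, and 2 other Müller glia markers, 2 glutamate genes, 2 carbonic anhydrases, 1 inner retina marker and 0 neutrophil markers. For *Edn2* and *Kcnj10* some libraries held under 20 counts, which limits how well their changes can be estimated.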
